A study of Mus musculus with 4 samples.

Results

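The 10 genes described here encode growth factors that leukocytes are known to release and that act on heart muscle, vessels, fibroblasts or the leukocytes themselves: Igf1, Vegfa, Vegfb, Hbegf, Areg, Osm, Pdgfa, Pdgfb, Csf1 and Grn. They were named by symbol and taken as the 10 rows of the matrices, among 31053 genes, whose gene name is one of these. The data are single-cell RNA profiles of CD45+ leukocytes, sorted live after Liberase digestion of perfused left ventricles from C57Bl6J mice with no genetic change named in the labels. One group of 4 mice received DOCA-salt, a regimen of the mineralocorticoid deoxycorticosterone acetate with salt that raises blood pressure, and the other 4 were sham controls. Dose, duration, age and sex are not given in the sources used here. Hashtag antibodies mark the mouse of origin of each cell. Each group's mice were pooled into 1 library, so a difference between DOCA-salt and sham cannot be told apart from a difference between the 2 libraries, and no setting of the tests changes this.

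Growth factors of this kind are made in small amounts and act on neighbouring cells. IGF-1 acts through its receptor tyrosine kinase on muscle growth and survival, VEGF ligands act on endothelium through VEGF receptors and neuropilins, and PDGF chains pair into dimers that act on fibroblasts and on the mural cells of vessels. Amphiregulin and HB-EGF are made as membrane proteins and released by sheddases to act on EGF receptors. Oncostatin M signals through gp130 to STAT3 and is known to act on cardiomyocytes and fibroblasts, M-CSF (Csf1) keeps macrophages alive through Csf1r, and progranulin (Grn) is a secreted and lysosomal glycoprotein.

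The DOCA-salt library held 7600 barcodes and 29764964 RNA UMIs (unique molecules), against 4359 barcodes and 13304511 UMIs in the sham library, and 41 barcode sequences occurred in both. After filters on genes, mitochondrial share, doublets and hashtags, 6865 DOCA-salt and 4061 sham cells remained, with medians of 3228 and 2808 UMIs in DOCA-salt and sham cells. Cells were clustered and named from marker genes as 12 classes, each written here as "like". The class sizes differed: DOCA-salt and sham mice gave 723 and 299 macrophage-like, 1275 and 541 NK-like, 153 and 14 neutrophil-like, 48 and 30 ILC2-like and 4 and 6 basophil-like cells. Median surface antibody counts went with the names checked, with CD64, a macrophage Fc receptor, at 1041 on DOCA-salt and 1155 on sham macrophage-like cells and at 87 and 130 on B-like cells of the same groups. Levels are given as CPM, that is UMIs of a gene per 1000000 UMIs of a class in one mouse, with the SD over the 4 mice of a group. Such a level cannot tell fewer producing cells from less RNA per cell.

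Over both libraries Grn was the most frequently detected of the 10 genes, with 10203 UMIs in 22.1% of cells. Igf1 had 876 UMIs, Osm 742, Pdgfb 546, Vegfb 281 and Csf1 259. Pdgfa had 166 and Areg 151, while Vegfa had only 26 and Hbegf 27. The factors divided among few classes. Igf1, Pdgfa and Grn were highest in macrophage-like cells, Pdgfb in NK-like and macrophage-like cells, Areg in ILC2-like cells, and Osm and Csf1 in basophil-like and then neutrophil-like cells. A class was named as a source only where it held at least 10 UMIs of the gene, and because the classes were clustered on these same cells their order is a description with no test.

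**Figure D1:**
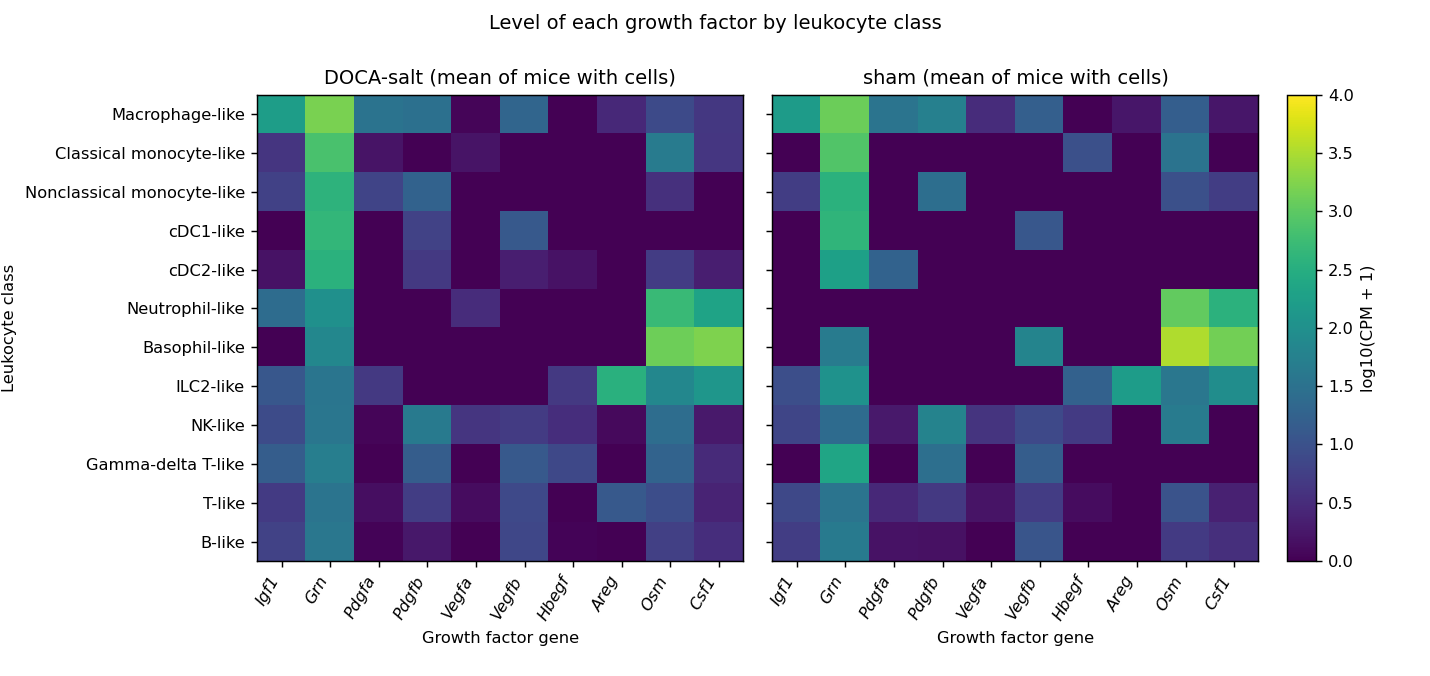
Colour shows the mean level of each factor, as log10(CPM + 1), in 12 leukocyte classes, with DOCA-salt mice on the left panel and sham mice on the right. The bright cells are Grn and Igf1 in the macrophage-like class, Areg in the ILC2-like class, and Osm and Csf1 in the basophil-like and neutrophil-like classes, in both groups.

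In macrophage-like cells, Igf1 was measured at 115, 223, 183 and 140.1 CPM in the DOCA-salt mice, against 139.5, 107, 206 and 168 CPM in the sham mice. The 2 groups overlapped over most of their range. Means were 165 ± 47.6 CPM in DOCA-salt mice and 155 ± 41.8 CPM in sham mice (SD, n = 4 each), and the difference was within the spread between mice (log2 change 0.055 ± 0.24 SE, edgeR adjusted p = 0.992). Igf1 UMIs were found in 34.6% of DOCA-salt cells (exact binomial 95% interval 31.1 to 38.2%) and 28.4% of sham cells (23.4 to 33.9%). Intervals on shares cover counting error only. As background, B-like cells held an Igf1 UMI in 1.48% of DOCA-salt cells and 1% of sham cells, at medians of 3011 UMIs in DOCA-salt and 2705 UMIs in sham cells, against 3791 and 2918 UMIs in macrophage-like cells. Thinning to 1500 UMIs left out the shallower cells, 118 of 723 DOCA-salt and 90 of 299 sham cells of the macrophage-like class, and among the rest the shares were 19.7% of DOCA-salt cells and 16.3% of sham cells.

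Averaged over the 8 mice, the Igf1 level was 160.2 CPM in macrophage-like cells. Among classes with at least 10 Igf1 UMIs, NK-like cells were next at 6.6 CPM, and no mouse's values overlapped between the 2 classes. Classes with fewer UMIs were left out of this order, among them neutrophil-like (7), ILC2-like (4) and gamma-delta T-like cells (4). T-like and B-like cells followed at 5.1 and 4.67 CPM, overlapping each other and NK-like cells. Macrophage-like cells held 73.6% in the DOCA-salt library and 65% in the sham library of all Igf1 UMIs, although they were 10.5% of DOCA-salt and 7.36% of sham cells. The unnamed clusters, left out of this order, held 9.26% of Igf1 UMIs in the DOCA-salt library and 12.9% in the sham library. An unnamed cluster of 88 cells had macrophage markers but was led by immunoglobulin genes. Igf1 lies on chromosome 10, 87858265 to 87937042, plus strand (GRCm38).

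Igf1 was spread unevenly among the 4 clusters that make up the macrophage-like class. It was highest in the cluster led by Pf4, C1qc, Mgl2 and Lyve1, with 260.1 CPM in DOCA-salt cells and 185 CPM in sham cells pooled over mice. The cluster led by Mrc1, the mannose receptor, and Stab1, a scavenger receptor, had 187 CPM in DOCA-salt cells and 198 CPM in sham cells. Lower values came from the cluster led by Spp1, Ccl8 and Trem2, with 119 CPM in DOCA-salt cells and 91.5 CPM in sham cells, and from the cluster led by Cxcl2, Egr1 and Atf3, with 71.4 CPM in DOCA-salt cells and 78.9 CPM in sham cells. Igf1 was among the variable genes used for clustering, so this order is a description. The Mrc1 and Stab1 cluster was shallower than the others, with a median of 1178 UMIs and a median mitochondrial share of 4.73%. The other clusters of the class had medians of 3490 to 4250 UMIs and 1.9 to 2.25%.

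Within the Pf4 and C1qc cluster, Igf1 was 270.4, 298, 215 and 221 CPM in the DOCA-salt mice, against 213, 146, 210.0 and 197 CPM in the sham mice. The lowest DOCA-salt mouse lay above the highest sham mouse there, as for 2.89% of the 2980 genes tested in this cluster, and the test did not pass (log2 change 0.43, edgeR adjusted p = 0.536). Over all settings run for the class, the adjusted p of Igf1 lay between 0.536 and 1. The make-up of the class also differed between mice. In DOCA-salt mouse 1, 52.6% of macrophage-like cells were in the Spp1 and Trem2 cluster and 14.3% in the Pf4 and C1qc cluster. The other DOCA-salt mice had 9.84 to 24.3% in the Spp1 and Trem2 cluster, and sham mice 12.9 to 19.2%. DOCA-salt mouse 1 also gave the lowest Igf1 level of its group. The part of cluster make-up in the class level was not tested.

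**Figure D2:**
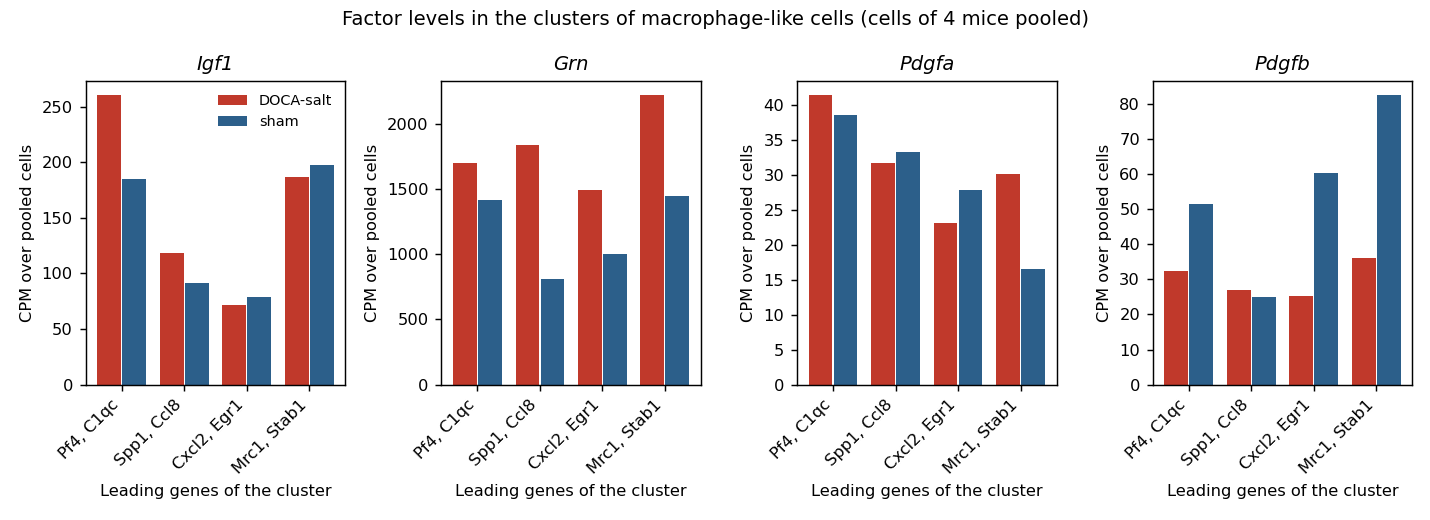
Bars show CPM of Igf1, Grn, Pdgfa and Pdgfb in the 4 clusters of macrophage-like cells, named by leading genes, over the pooled cells of 4 DOCA-salt mice (left bars) and 4 sham mice (right bars), with no error since cells were pooled. Igf1 is highest in the Pf4 and C1qc cluster, and Pdgfb is lower in DOCA-salt than in sham cells in 3 of the 4 clusters.

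Pdgfb, which encodes the B chain of PDGF, was the factor with the lowest p-value in macrophage-like and in NK-like cells. The macrophage-like level was 25.9, 32, 25.5 and 32.2 CPM in the DOCA-salt mice, against 52.3, 41.8, 76.5 and 49.7 CPM in the sham mice. Every DOCA-salt mouse was below every sham mouse, as was true of 2.63% of the 4675 genes tested in this class. Means were 28.9 ± 3.72 CPM in DOCA-salt mice and 55.1 ± 14.9 CPM in sham mice (SD, n = 4 each), from 94 UMIs in DOCA-salt and 49 in sham cells. The difference did not pass the threshold of 0.05 after adjustment over all genes (log2 change -0.89 ± 0.28 SE, edgeR adjusted p = 0.263). None of the 4 factors tested in macrophage-like cells passed it, where 0.342% of genes did.

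NK-like cells had Pdgfb at 39.4, 43.5, 49 and 42.2 CPM in the DOCA-salt mice, against 73.5, 56.6, 61.7 and 50.5 CPM in the sham mice. The groups again did not overlap, which held in this direction for 2.2% of 6533 genes. Means were 43.5 ± 4.02 CPM in DOCA-salt mice and 60.6 ± 9.75 CPM in sham mice (SD, n = 4 each), and this difference also missed the threshold (log2 change -0.49 ± 0.17 SE, edgeR adjusted p = 0.287). In this class 0 of 3 factors and 0.903% of all genes passed. Leaving out each mouse in turn kept the log2 change between -0.64 and -0.39 in NK-like cells and between -1.04 and -0.71 in macrophage-like cells. Summed over all cells other than B-like, Pdgfb had a log2 change of -0.54 (adjusted p = 0.181), with 18, 22.6, 13.6 and 21.7 CPM in the DOCA-salt mice, against 30.5, 24.9, 31.5 and 27.8 CPM in the sham mice. Those groups did not overlap, as for 4.27% of 9891 genes.

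The same direction was seen in 3 of the 4 macrophage-like clusters. The cluster led by Cxcl2 and Egr1 had 25.1 CPM in DOCA-salt cells and 60.4 CPM in sham cells, the Mrc1 and Stab1 cluster 36.2 CPM in DOCA-salt cells and 82.3 CPM in sham cells from 11 UMIs, and the Pf4 and C1qc cluster 32.4 CPM in DOCA-salt cells and 51.3 CPM in sham cells. In the Spp1 and Trem2 cluster the values were 26.9 CPM in DOCA-salt cells and 25 CPM in sham cells, with 3 UMIs behind the sham value. Among NK-like clusters, the one led by Klrc1 and Klra9 had 39.4 CPM in DOCA-salt cells and 73.6 CPM in sham cells and the one led by Klra4 and Klra3 36.3 CPM in DOCA-salt cells and 35.3 CPM in sham cells.

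Pdgfb was found in 14.5% of DOCA-salt cells (exact binomial 95% interval 12.6 to 16.6%) and 17.7% of sham cells (14.6 to 21.2%) of the NK-like class and in 11.2% of DOCA-salt cells and 13.4% of sham cells of the macrophage-like class, against 0.216% of DOCA-salt cells and 0.143% of sham cells of the B-like class. After thinning, which left out 41 of 1275 DOCA-salt and 20 of 541 sham cells of the NK-like class, the shares there were 7.37% of DOCA-salt cells and 8.83% of sham cells. Averaged over 8 mice the level was 52.1 CPM in NK-like, 42 in macrophage-like and 22.1 in nonclassical monocyte-like cells, and neighbours in this order overlapped. T-like cells, at 3.93 CPM, lay below all mice of these 3 classes. NK-like cells held 56.4% in the DOCA-salt library and 59% in the sham library of Pdgfb UMIs, and macrophage-like cells 26.3% in the DOCA-salt library and 26.1% in the sham library. Pdgfb (chromosome 15, 79995874 to 80014977, minus strand) overlaps the microRNA gene Mir7213 on the same strand, and reads of the 2 could not be told apart.

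Pdgfa, the A chain, had macrophage-like cells as its sole class with 10 or more UMIs. Its level there was 25.9, 40.7, 20.4 and 41.9 CPM in the DOCA-salt mice, against 43.6, 41.8, 17.6 and 31 CPM in the sham mice, with the groups overlapping. Means were 32.2 ± 10.7 CPM in DOCA-salt mice and 33.5 ± 11.9 CPM in sham mice (SD, n = 4 each), which differed by less than the spread between mice (log2 change -0.054 ± 0.33 SE, edgeR adjusted p = 1). Macrophage-like cells held 87.5% in the DOCA-salt library and 69.6% in the sham library of Pdgfa UMIs. A UMI was seen in 12.2% of DOCA-salt cells and 9.7% of sham cells, or 4.46% of DOCA-salt cells and 3.35% of sham cells deep enough for thinning, against 0.036% of DOCA-salt cells and 0.143% of sham cells of the B-like class. The other PDGF ligand counted in the class was Pdgfc, with 14.8 CPM in DOCA-salt mice and 3.7 CPM in sham mice, from 36 DOCA-salt and 3 sham UMIs and with no test.

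**Figure D3:**
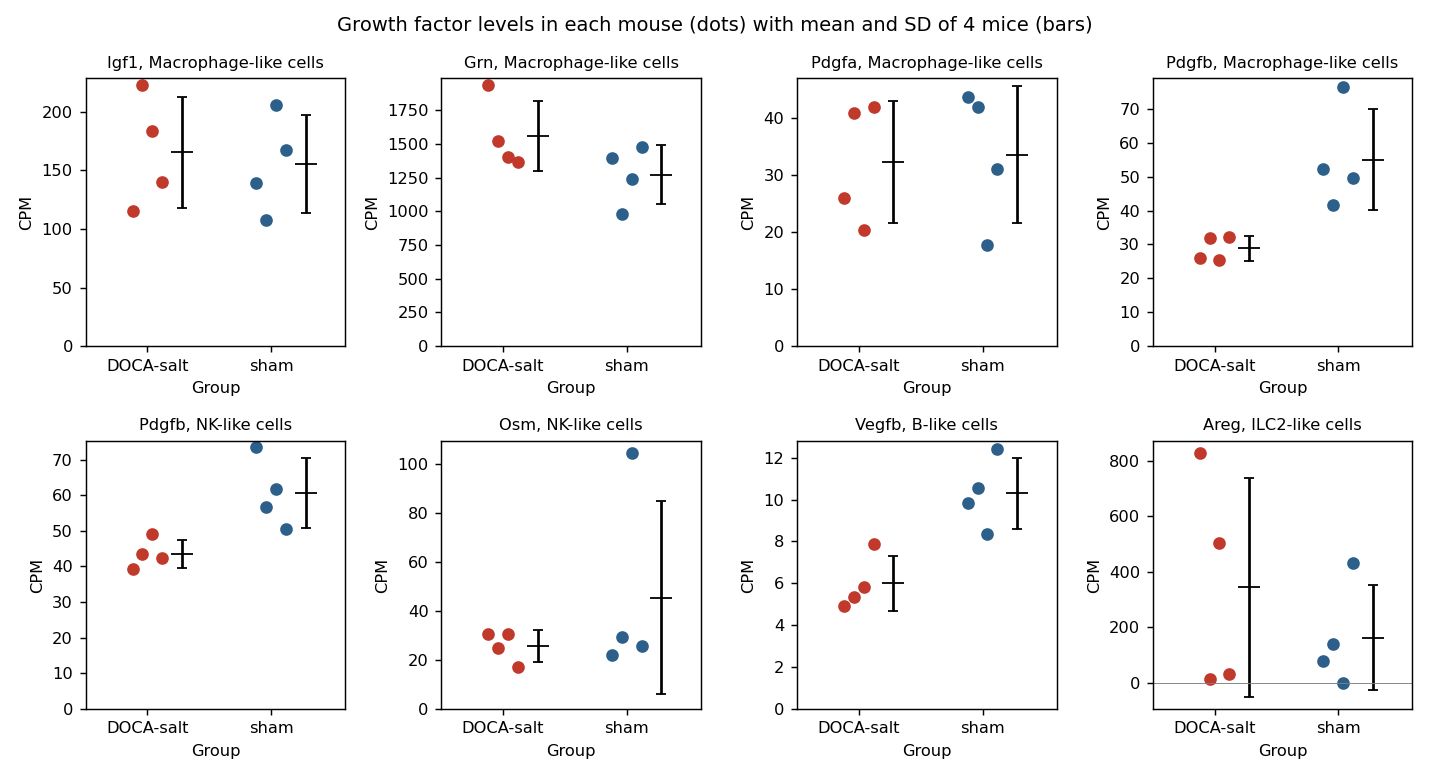
Each dot is the CPM of a factor in the cells of one mouse, with DOCA-salt mice left and sham mice right, and bars give the mean and SD of 4 mice. Pdgfb in macrophage-like and NK-like cells and Vegfb in B-like cells show no overlap between groups, while the other panels do.

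Vegfa, the main endothelial growth factor of its family, was close to the detection limit. NK-like cells held 19 of its 26 UMIs, at 3.08 CPM in DOCA-salt mice and 3 CPM in sham mice, and 1.1% of DOCA-salt cells and 0.924% of sham cells of that class had a UMI. B-like cells had none in 2776 DOCA-salt cells, which allows a share of up to 0.108%, and none in 2097 sham cells, which allows up to 0.143%. In macrophage-like cells 1 DOCA-salt cell and 1 sham cell held a Vegfa UMI. No class passed the filter for a test of Vegfa, and a difference between the groups was not detectable at this depth.

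Vegfb, a VEGF family ligand linked to fatty acid handling in the heart, was found at a low level in several classes. Macrophage-like cells had 12.7, 4.37, 45.9 and 14.5 CPM in the DOCA-salt mice, against 8.72, 8.96, 17.6 and 24.8 CPM in the sham mice, in which the groups overlapped and DOCA-salt mouse 3 rested on 9 UMIs. B-like cells had 4.92, 5.36, 5.83 and 7.89 CPM in the DOCA-salt mice, against 9.86, 10.6, 8.33 and 12.4 CPM in the sham mice. There every DOCA-salt mouse was below every sham mouse, as in 5.19% of 8671 genes. Means in B-like cells were 6 ± 1.31 CPM in DOCA-salt mice and 10.3 ± 1.69 CPM in sham mice (SD, n = 4 each), from 53 UMIs in DOCA-salt and 62 in sham cells, and the difference missed the threshold (log2 change -0.80 ± 0.24 SE, edgeR adjusted p = 0.136). None of the 3 factors tested in B-like cells passed, against 1.57% of genes.

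T-like cells ran the other way, with 7.31, 5.69, 6.79 and 6.22 CPM in the DOCA-salt mice, against 4.94, 4.97, 3.98 and 2.76 CPM in the sham mice from 32 UMIs in DOCA-salt and 7 in sham cells. These groups did not overlap either, which held in this direction for 2.24% of the 6336 genes tested in T-like cells. Vegfb did not pass the filter for a test there. It is not among those genes, so their share is no background for a gene this sparse. The make-up of the T-like class differed between groups. Median CD4 antibody counts were 45 on DOCA-salt and 1419 on sham T-like cells, and CD8a counts 154 and 47. The part of this make-up in the Vegfb values was not tested. A Vegfb UMI was present in 5.67% of DOCA-salt cells and 4.01% of sham cells of the macrophage-like class and 1.8% of DOCA-salt cells and 2.67% of sham cells of the B-like class, and, among cells deep enough for thinning, in 1.65% of DOCA-salt cells and 1.44% of sham cells of the macrophage-like class and 0.92% of DOCA-salt cells and 1.48% of sham cells of the B-like class, where 59 of 2776 DOCA-salt and 68 of 2097 sham cells were left out. The classes' levels of 17.2, 8.15, 5.34 and 5.33 CPM in macrophage-like, B-like, NK-like and T-like cells overlapped at each step, so no single source class was set apart for Vegfb.

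Areg, which encodes amphiregulin, an EGF receptor ligand known from type 2 lymphoid cells and regulatory T cells, was highest in ILC2-like cells. It lies on chromosome 5, 91139599 to 91148432, plus strand. Its promoter is shown because Areg is the single one, of the 7 factors matched in the RefSeq promoter table, with the letters TGACGTCA, the full cyclic AMP response element, or TATAAA, the TATA box letters. Those stretches are in capitals, on GRCm38.p6 at chr5:91139349-91139648, plus strand, 250 bases before to 50 after the start.

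Areg promoter: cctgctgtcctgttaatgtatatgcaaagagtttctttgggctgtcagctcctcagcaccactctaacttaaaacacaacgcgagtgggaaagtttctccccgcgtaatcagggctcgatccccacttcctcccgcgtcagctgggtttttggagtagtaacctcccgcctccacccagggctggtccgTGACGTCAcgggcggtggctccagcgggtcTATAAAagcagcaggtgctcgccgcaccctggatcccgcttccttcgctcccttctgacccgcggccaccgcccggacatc

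Searched on both strands, TGACGTCA was present in 1.79% and TATAAA in 13.6% of 32851 mouse promoters of this length, and the pair of motifs do not overlap. A match describes the letters and not a bound factor.

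In ILC2-like cells Areg was 826, 14.3, 503 and 29.8 CPM in the DOCA-salt mice, against 79.2, 139.9, 0 and 430.2 CPM in the sham mice. Groups overlapped from end to end. These levels rest on 57 DOCA-salt and 19 sham UMIs in few cells. In DOCA-salt mouse 1 all 21 UMIs came from 1 cell, and in sham mouse 4 all 11 came from 1 cell. Areg was found in 9 of 48 DOCA-salt cells and 5 of 30 sham cells, or 18.8% and 16.7%, against 0 of 2776 and 0 of 2097 B-like cells. The ILC2-like class was named without Areg among its markers. It was tested on 459 genes, of which edgeR called 0 (0%), with 34 at an unadjusted p under 0.05 and 1 called by DESeq2, and Areg did not pass the filter there.

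T-like cells held the other large share of Areg, and in DOCA-salt mice alone: 31.2, 4.74, 12.2 and 0 CPM in the DOCA-salt mice, against 0, 0, 0 and 0 CPM in the sham mice. All 61 UMIs were in DOCA-salt cells and 33 of them in 1 cell. Against a floor of 3 UMIs over the sham group, the pooled DOCA-salt level was 7.39-fold higher. Without that cell the ratio was 3.4-fold, and without DOCA-salt mouse 1 it was 2.45-fold. These ratios pool mice and treat UMIs as independent, so they are no lower bound on a difference. By cells, 11 of 869 DOCA-salt T-like cells held an Areg UMI (1.27%, exact binomial interval 0.634 to 2.25%). In sham mice 0 of 409 T-like cells held one (upper limit 0.898%), and these intervals overlapped. DOCA-salt mouse 4 had 0 UMIs in 280 T-like cells. Areg was removed by the low-count filter in T-like cells, so it had no test. It was called when no filter was applied (edgeR adjusted p = 8.82e-06), the single call among the factors under any setting run. Without the filter 199 of 14619 genes were called in T-like cells, against 26 of 6336 with it.

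Of these UMIs, 53 were in the T-like cluster led by Fabp4, Ctla4, Tnfrsf4 and Ikzf2, where 9 of 79 DOCA-salt cells (11.4%, exact 95% interval 5.34 to 20.5%) and 0 of 15 sham cells held one. The count of 0 in 15 cells allows a share of up to 20%, so a difference in share was not detectable at this depth. Foxp3, the defining gene of regulatory T cells, was present in 17.0% of the cells of this cluster and 1.18% of other T-like cells, and Ctla4 in 36.2% and 7.01%. Ikzf2 was present in 27.7% and 4.65%. Fabp4, which leads the cluster, is also an endothelial marker. The summed endothelial marker list in T-like cells was 50.2 to 98.3 CPM in DOCA-salt mice and 39.8 to 912 CPM in sham mice, with all 8 markers detected, and its part in the Areg values was not tested. By cells, the cluster was 15.9, 9.42, 5.51 and 3.93% of T-like cells in DOCA-salt mice, against 6.32, 4.21, 1.49 and 2.63% in sham mice.

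Hbegf, another EGF receptor ligand, had 27 UMIs in all. NK-like cells held 17 of them, at 2.29 CPM in DOCA-salt mice and 3.85 CPM in sham mice, from 12 DOCA-salt and 5 sham UMIs. Macrophage-like cells had 0 in 723 DOCA-salt cells, which allows a share of up to 0.415%, and 0 in 299 sham cells, which allows up to 1.003%. A group difference was not detectable for Hbegf at this depth. Of the enzymes that shed these ligands, Adam17 in macrophage-like cells had 71.3 CPM in DOCA-salt mice and 61.8 CPM in sham mice, log2 change 0.23, adjusted p = 0.872, and Adam10 92.3 CPM in DOCA-salt mice and 100.3 CPM in sham mice, log2 change -0.23, adjusted p = 0.857. In B-like cells 1 of 4 tested genes of the EGF family list passed, beside 1.57% of all genes: Rhbdf1, which encodes an inactive rhomboid that works with Adam17, rose (10.5 CPM in DOCA-salt mice and 4.18 CPM in sham mice, log2 change 1.31, adjusted p = 0.0308).

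Osm, the gene for oncostatin M, was highest in the 10 basophil-like cells. Basophil-like levels were 1891 and 701 CPM in the 2 DOCA-salt mice with such cells, against 8433, 1321, 0 and 3671 CPM in the sham mice, from 20 and 75 UMIs. The groups overlapped, and 29 of the 95 UMIs were in 1 cell. Osm and Csf1 are themselves among the 10 leading genes of this cluster, so their height there describes the cluster. With all 10 factors left out of the clustering the basophil-like class was found again and the levels were 2669.5 CPM for Osm and 1492 CPM for Csf1 over the 6 mice with such cells, the same as before. The Osm mean rests on sham mouse 1: without it the level was 1517 CPM, and the highest value with a mouse left out was 3203 CPM.

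Neutrophil-like cells came next for Osm, with 431, 424, 778 and 394 CPM in the DOCA-salt mice, against 150.0, 3396, 0 and 757 CPM in the sham mice. The sham values rest on 14 cells, and sham mouse 3 had 1 neutrophil-like cell, so the class was too small for a test. In DOCA-salt mice 34.6% of 153 neutrophil-like cells held an Osm UMI (exact 95% interval 27.1 to 42.7%), against 1.73% of B-like cells. The neutrophil-like cluster led by S100a8 and Retnlg had 585 CPM in DOCA-salt cells and 1121 CPM in sham cells, from 25 sham UMIs, and the cluster led by Stfa2l1 had 361 CPM in DOCA-salt cells and 367 CPM in sham cells from 3 sham cells.

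Osm could be tested in NK-like cells, where it was 30.8, 24.7, 30.6 and 17 CPM in the DOCA-salt mice, against 22, 29.4, 104 and 25.8 CPM in the sham mice. Sham mouse 3 stood far above all others, and 14 of its 22 UMIs were in 1 of 65 cells. The groups overlapped and the change did not pass (log2 change -0.62 ± 0.33 SE, edgeR adjusted p = 0.619). Leaving out sham mouse 3 gave a log2 change of -0.16 (adjusted p = 0.942, within a range over all settings of 0.456 to 0.999). By cells the shares were close, at 7.84% of DOCA-salt cells and 7.76% of sham cells. Classical monocyte-like cells had 45.2 CPM in DOCA-salt mice and 32.1 CPM in sham mice, from 58 and 3 UMIs, of which 28 were in 1 DOCA-salt cell.

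Csf1, the macrophage survival factor, was like Osm highest in basophil-like, neutrophil-like and ILC2-like cells, while NK-like cells held 2 of its 259 UMIs and 176 of the 742 of Osm. Basophil-like cells had 2269 and 1122 CPM in DOCA-salt mice, against 872, 793, 2015 and 1880.4 CPM in sham mice, and all 10 cells held a UMI. Neutrophil-like cells had 108, 296, 237 and 201 CPM in the DOCA-salt mice, against 150.0, 0, 1035 and 303 CPM in the sham mice, from 74 UMIs in DOCA-salt and 6 in sham cells. ILC2-like cells had 78.7, 157, 91.4 and 179 CPM in the DOCA-salt mice, against 132, 28, 0 and 196 CPM in the sham mice. Groups overlapped in each of these classes and none could be tested for Csf1. Macrophage-like cells, which carry the receptor, held 13 DOCA-salt UMIs and 1 sham UMI of the ligand.

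The share of a factor's UMIs held by a class takes in both its level there and the number of cells. Neutrophil-like cells held 31.2% in the DOCA-salt library and 11.6% in the sham library of Osm UMIs and 40.2% in the DOCA-salt library and 8% in the sham library of Csf1 UMIs, while they were 2.23% of DOCA-salt and 0.345% of sham cells. By mouse, the neutrophil-like share of Osm was 8.76, 37.1, 60.8 and 28.3% in the DOCA-salt mice, against 3.51, 36.4, 0 and 5.75% in the sham mice, and that of Csf1 6.82, 56.6, 60 and 40.4% in the DOCA-salt mice, against 12.5, 0, 16.7 and 5.56% in the sham mice. The groups overlapped for both genes. Sham mouse 2 gave 20 of the 27 sham Osm UMIs of the class, and without it the sham share was 3.93%. Basophil-like cells held 3.93% in the DOCA-salt library and 32.2% in the sham library of Osm UMIs and 14.1% in the DOCA-salt library and 46.7% in the sham library of Csf1 UMIs. These basophil-like shares come from 4 DOCA-salt and 6 sham cells, and the groups again overlapped by mouse. Without DOCA-salt mouse 1 the DOCA-salt shares were 1.34% for Osm and 5.71% for Csf1, an alternative added after seeing the data.

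**Figure D4:**
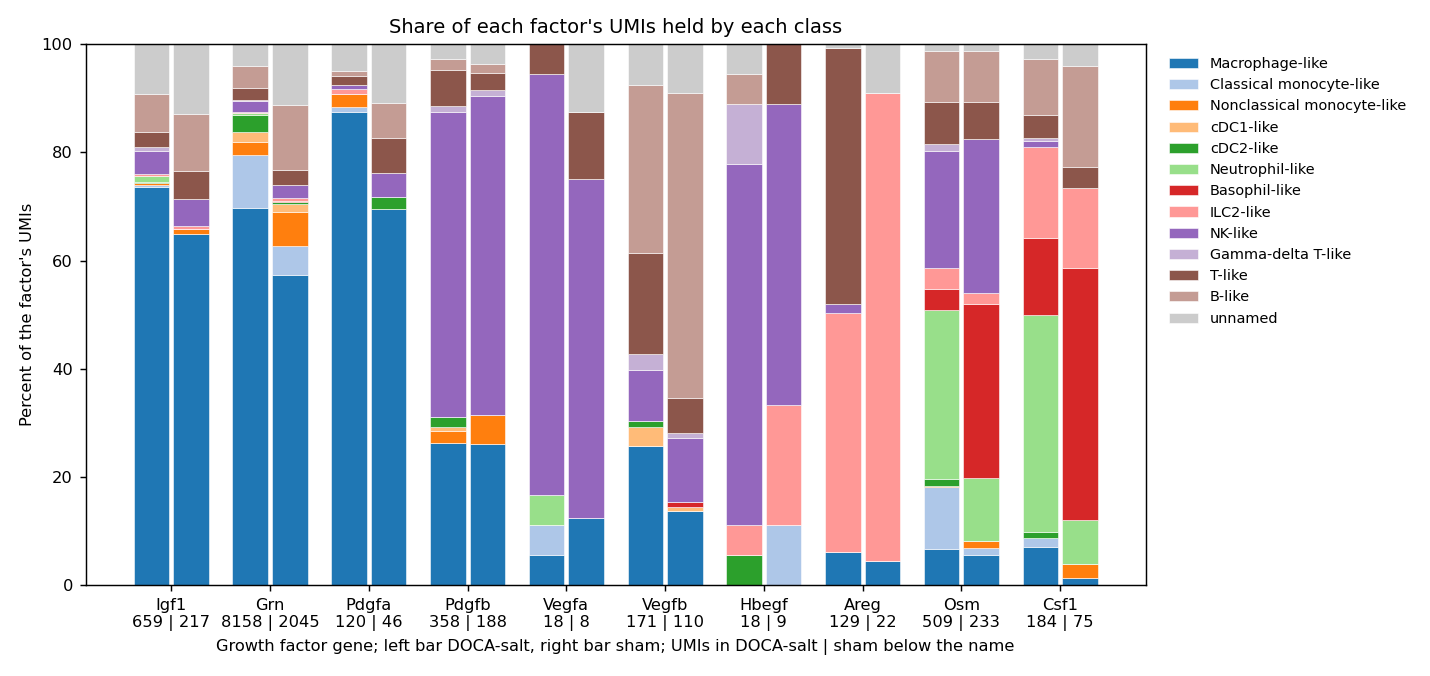
Stacked bars give the percent of each factor's UMIs held by each leukocyte class in the DOCA-salt library (left bar of each pair) and the sham library (right bar), with the UMI totals below the names. Macrophage-like cells hold most Igf1, Grn and Pdgfa in both libraries, while Osm and Csf1 are divided over several classes.

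Grn, encoding progranulin, held 10 or more UMIs in 11 of the 12 classes and was highest in macrophage-like, monocyte-like and cDC-like cells. Neutrophil-like cells, at 50.6 CPM from 32 UMIs, lay below gamma-delta T-like and ILC2-like cells. Those had 138 and 71.2 CPM from 20 UMIs each. Its promoter is shown beside that of Areg as the most widely detected of the factors; it holds neither motif (GRCm38.p6, chr11:102430257-102430556, plus strand, so no capitals).

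Grn promoter: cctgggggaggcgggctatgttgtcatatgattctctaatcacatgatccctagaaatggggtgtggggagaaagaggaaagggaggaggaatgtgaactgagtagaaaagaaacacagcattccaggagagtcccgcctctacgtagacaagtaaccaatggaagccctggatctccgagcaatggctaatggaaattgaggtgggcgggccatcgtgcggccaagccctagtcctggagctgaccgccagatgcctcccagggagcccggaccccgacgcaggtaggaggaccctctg

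In macrophage-like cells Grn was 1938, 1524, 1406 and 1365 CPM in the DOCA-salt mice, against 1395, 976, 1241 and 1477 CPM in the sham mice. DOCA-salt mouse 1 was the highest and sham mouse 2 the lowest, and the groups overlapped. Means were 1558 ± 262 CPM in DOCA-salt mice and 1272 ± 220.4 CPM in sham mice (SD, n = 4 each; log2 change 0.28 ± 0.16 SE, edgeR adjusted p = 0.686). Grn was present in 88.8% of DOCA-salt cells and 83.9% of sham cells of this class, and in 79.7% of DOCA-salt cells and 78.5% of sham cells deep enough for thinning. B-like cells held a UMI in 10.1% of DOCA-salt cells and 10.6% of sham cells. Over the mice with cells of each class, 7 for each cDC class and 8 for the others, the level was 1415 CPM in macrophage-like, 759 in classical monocyte-like, 435 in cDC1-like, 376 in nonclassical monocyte-like and 286 in cDC2-like cells, each overlapping the next. By cluster, the shallower Mrc1 and Stab1 macrophage-like cluster had 2217 CPM in DOCA-salt cells and 1449 CPM in sham cells. The Spp1 and Trem2 cluster had 1835 CPM in DOCA-salt cells and 807 CPM in sham cells.

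Grn was tested in 6 classes, 0 of which passed. Classical monocyte-like cells had 697 ± 46.5 CPM in DOCA-salt mice and 822 ± 309 CPM in sham mice (log2 change -0.12 ± 0.21 SE, edgeR adjusted p = 0.992). Nonclassical monocyte-like cells had 389 ± 56 CPM in DOCA-salt mice and 363 ± 20.4 CPM in sham mice (log2 change 0.085 ± 0.18 SE, edgeR adjusted p = 0.904). The background of calls was 0.0621% of 1610 genes in classical and 1.64% of 1707 genes in nonclassical monocyte-like cells.

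NK-like cells, at a far lower level, had Grn at 37.5, 38.2, 36.7 and 32.5 CPM in the DOCA-salt mice, against 24.5, 24.9, 19 and 27 CPM in the sham mice. All DOCA-salt mice were above all sham mice, as in 3.69% of genes tested there, but the change did not pass (log2 change 0.48 ± 0.22 SE, edgeR adjusted p = 0.525). All 14 macrophage markers had UMIs in NK-like cells, with a summed level of 440.1 to 874 CPM in DOCA-salt mice and 326 to 577 CPM in sham mice, and its part in this difference was not tested. T-like cells had 34 CPM in DOCA-salt mice and 33.4 CPM in sham mice and B-like cells 37 CPM in DOCA-salt mice and 43.3 CPM in sham mice, neither past the threshold (adjusted p = 0.94 and 0.583), where 0.41% of T-like genes passed. In ILC2-like cells Grn was 78.7, 28.6, 0 and 29.8 CPM in the DOCA-salt mice, against 79.2, 139.9, 96.2 and 117 CPM in the sham mice, from 6 and 14 UMIs. Every DOCA-salt mouse was below every sham mouse there, as for 2.4% of the 459 genes tested. Grn was not tested there and is not among those genes, so their share is no background for a gene this sparse. Neutrophil-like cells held 32 Grn UMIs in 153 DOCA-salt cells and 0 in 14 sham cells, too few sham cells for a comparison.

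Over all leukocytes of a mouse, Grn had 504, 221, 202 and 193 CPM in the DOCA-salt mice, against 125, 166, 192 and 179 CPM in the sham mice. DOCA-salt mice were all above sham mice, as for 5.69% of 10764 genes, and the change missed the threshold (log2 change 0.76 ± 0.29 SE, edgeR adjusted p = 0.186). Without DOCA-salt mouse 1, which had the most macrophage-like cells (329), the log2 change was 0.30, and without B-like cells 0.56. None of the 7 factors tested over all leukocytes passed, where 5.25% of genes did. Igf1 had a log2 change of 0.44 there, Csf1 0.28, Pdgfa 0.22, Osm 0.14, Pdgfb -0.22 and Vegfb -0.43, with adjusted p between 0.36 and 0.852. These totals take in the mix of classes: macrophage-like cells were 10.5% of DOCA-salt and 7.36% of sham cells, and B-like cells 40.4 and 51.6%.

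**Figure D5:**
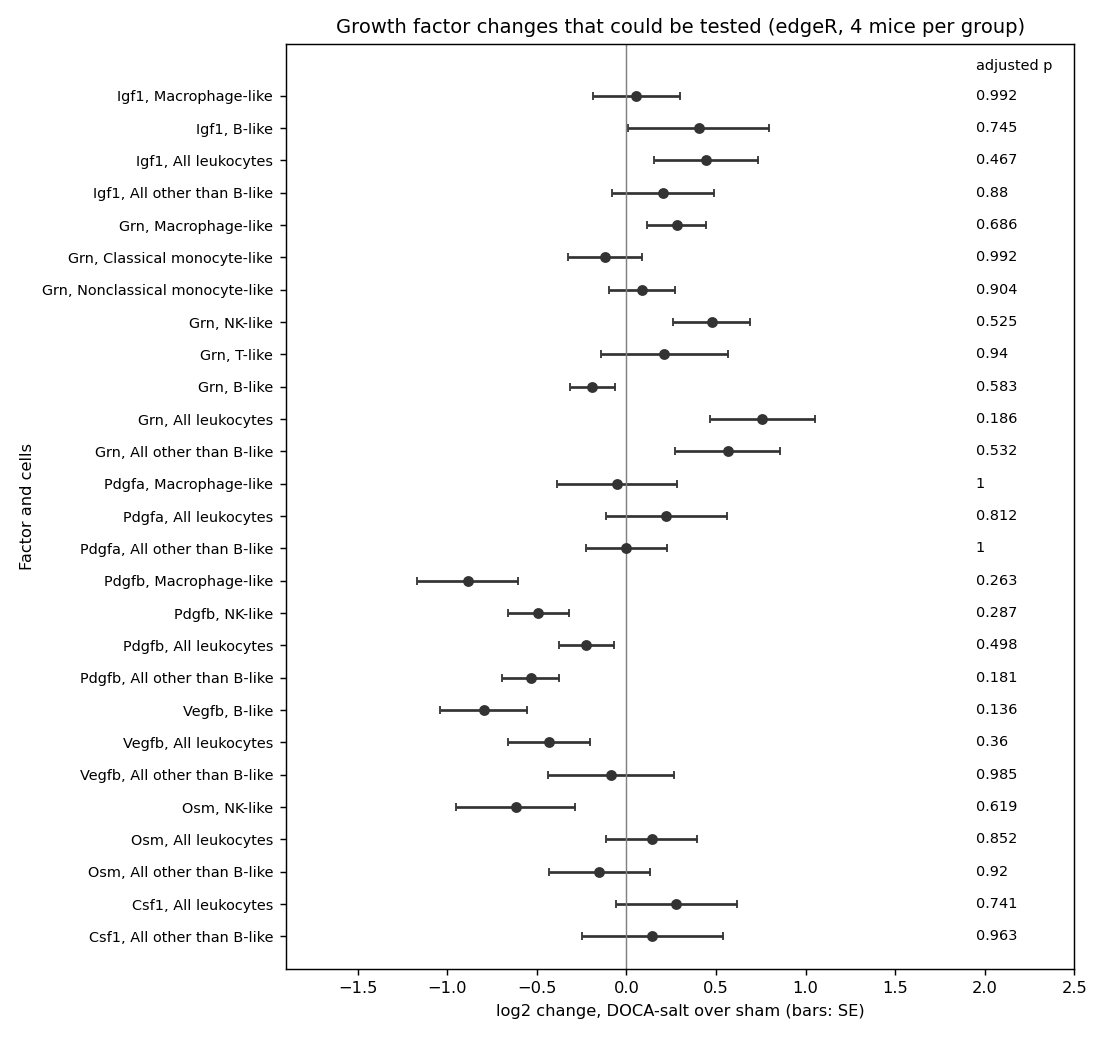
Points are log2 changes of DOCA-salt over sham for every factor and class with a test, and for all leukocytes with and without B-like cells; bars are standard errors and the right column gives the edgeR adjusted p. None is below 0.05, and the lowest are Vegfb in B-like cells, Pdgfb outside B-like cells and Grn over all leukocytes.

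In sum over the named classes, 13 tests of 6 factors were made and edgeR called 0, with 4 of the 13 at an unadjusted p under 0.05: Pdgfb in macrophage-like and NK-like cells, Vegfb in B-like cells and Grn in NK-like cells. Over all genes that p was reached by 414 of 4675 in macrophage-like, 593 of 6533 in NK-like and 1147 of 8671 in B-like cells. DESeq2 also called 0. Vegfa, Hbegf, Areg and Csf1 passed the filter in no named class. In simulated data of these depths the same test recovered 53% of 2-fold and 79% of 4-fold changes in macrophage-like cells and 74% and 89% in NK-like cells. False calls were 5.71% of calls in macrophage-like and 8.43% in NK-like cells. The changed genes were drawn from all genes tested, so recovery for genes as sparse as these factors was not measured.

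Some cells held more than one factor. Among basophil-like cells 8 of 10 held both Osm and Csf1. In neutrophil-like cells 57 of 167 held Osm, 41 held Csf1 and 13 held both. ILC2-like cells gave 14 with Areg, 28 with Csf1 and 8 with both of 78. In the macrophage-like class, 335 of 1022 cells held Igf1 and 308 of these also held Grn, while 51 held Igf1 with Pdgfa and 44 Igf1 with Pdgfb. In all, 18 of 1816 NK-like cells held both Osm (142 cells) and Pdgfb (281 cells). These counts depend on depth and were not tested.

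Receptors for the factors were themselves measured unevenly in leukocytes, and 14 of a list of 20 held 10 UMIs in some class. Osmr, the oncostatin M receptor gene on this list, held fewer in every class. In macrophage-like cells 7 of the 20 were tested and 0 passed, with 4 log2 changes above 0 and 3 below and a median of 0.048, beside 0.0094 over all genes. The 3 largest were in Lifr, Il6st and Tnfrsf1a. Lifr, an IL-6 family receptor, had 234 CPM in DOCA-salt mice and 157 CPM in sham mice (log2 change 0.44, edgeR adjusted p = 0.713). Il6st, the gene of gp130, had 33.3 CPM in DOCA-salt mice and 31 CPM in sham mice (log2 change 0.28, edgeR adjusted p = 0.954). Tnfrsf1a, a TNF receptor reported to bind progranulin, had 249.8 CPM in DOCA-salt mice and 272 CPM in sham mice (log2 change -0.17, edgeR adjusted p = 0.874). Csf1r, chosen after its values were seen because it is the receptor of Csf1, had 2028 CPM in DOCA-salt mice and 2127 CPM in sham mice, log2 change -0.095, adjusted p = 0.962. Over all leukocytes Lifr (log2 change 0.82, adjusted p = 0.0392) and Tnfrsf1a (0.53, adjusted p = 0.0109) rose, 2 of 12 tested, where 5.25% of all genes passed. Outside B-like cells 0 of 11 tested receptors passed, where 0.96% of all genes did. Igf1r, the receptor of IGF-1, had its highest level in neutrophil-like cells (225 CPM in DOCA-salt mice and 80.3 CPM in sham mice), from 78 DOCA-salt and 2 sham UMIs.

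Genes known to respond to oncostatin M and STAT3 lay on one side in macrophage-like cells without passing. All 7 of the 8 that were tested had log2 changes above 0, with a median of 0.55 beside 0.0094 over all genes, and 0 passed. They include Socs3, the feedback inhibitor of gp130 signalling (349 CPM in DOCA-salt mice and 191 CPM in sham mice, log2 change 0.75, adjusted p = 0.688), Stat3 (138 CPM in DOCA-salt mice and 78.6 CPM in sham mice, log2 change 0.65, adjusted p = 0.412) and Pim1, a STAT-induced kinase (128 CPM in DOCA-salt mice and 81.6 CPM in sham mice, log2 change 0.60, adjusted p = 0.629). In NK-like cells 2 of 6 were above 0 and 1 passed, beside 0.903% of all genes: Junb fell (767 CPM in DOCA-salt mice and 1070.4 CPM in sham mice, log2 change -0.52, adjusted p = 0.0316). Cebpd, a STAT3 target, rose over all leukocytes (log2 change 1.20, edgeR adjusted p = 0.00471) and outside B-like cells (0.93, edgeR adjusted p = 0.0409). There 5.25% and 0.96% of genes passed. Cebpd was highest in neutrophil-like cells (1271 CPM in DOCA-salt mice and 855 CPM in sham mice), of which there were 153 DOCA-salt and 14 sham cells. The part of the class mix in this rise was not tested.

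Genes that handle progranulin showed no called change in macrophage-like cells, with 6 of 10 tested and a median of 0.11. The largest changes were in the lysosomal proteases Ctsd (672 CPM in DOCA-salt mice and 295 CPM in sham mice, log2 change 1.13, adjusted p = 0.207) and Ctsl (238 CPM in DOCA-salt mice and 137 CPM in sham mice, log2 change 0.81, adjusted p = 0.308). Slpi, the inhibitor that shields progranulin from elastase, rose over all leukocytes (log2 change 2.89, adjusted p = 0.0143), as 1 of 9 tested beside 5.25% of all genes, and its highest class was neutrophil-like cells (5624 CPM in DOCA-salt mice and 3755 CPM in sham mice). Outside B-like cells 0 of 9 tested genes of this list passed, beside 0.96% of all genes.

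Among 23 other secreted factors with effects on heart tissue, 8 were tested in macrophage-like cells and 1 passed, beside 0.342% of all genes. Cyr61, a matricellular protein gene, fell (22.2 CPM in DOCA-salt mice and 88.6 CPM in sham mice, log2 change -2.23, adjusted p = 0.00187). Cyr61 was among the 10 leading genes of the Cxcl2, Egr1 and Atf3 cluster. The part of early response and of cluster make-up in its fall was not tested. Il1b (134 CPM in DOCA-salt mice and 375 CPM in sham mice, log2 change -1.37, adjusted p = 0.191) and Metrnl, the gene of meteorin-like (309 CPM in DOCA-salt mice and 194 CPM in sham mice, log2 change 0.65, adjusted p = 0.156), did not pass in macrophage-like cells. In NK-like cells 1 of 6 passed, beside 0.903% of all genes, with Lgals3, the galectin-3 gene, higher (78.8 CPM in DOCA-salt mice and 26.8 CPM in sham mice, log2 change 1.36, adjusted p = 0.00259). Over all leukocytes Lgals3, Metrnl and Il1b rose, 3 of 11 tested (adjusted p = 0.0123, 0.0415 and 0.0484), beside 5.25% of all genes. Outside B-like cells 0 of 10 tested were called higher and 1 lower, beside 0.96% of all genes. Il1b was highest in neutrophil-like cells (9502 CPM in DOCA-salt mice and 10983 CPM in sham mice), of which there were 153 DOCA-salt and 14 sham cells. The part of the class mix in these totals was not tested. Igfbp4, the one IGF axis gene tested in macrophage-like cells, had 217 CPM in DOCA-salt mice and 235 CPM in sham mice, log2 change -0.14, adjusted p = 0.96. Vegfc in NK-like cells had 24.5 CPM in DOCA-salt mice and 28.9 CPM in sham mice, log2 change -0.18, adjusted p = 0.916, and Clcf1, an IL-6 family ligand, 87.6 CPM in DOCA-salt mice and 91.4 CPM in sham mice, log2 change -0.10, adjusted p = 0.897. Csf2, the GM-CSF gene, was highest in ILC2-like cells, with 263 CPM in DOCA-salt mice and 48.8 CPM in sham mice from 62 and 6 UMIs and no test.

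Of 14 hypoxia targets, read beside the VEGF genes, 5 were tested and gave 5 of 5 log2 changes above 0 in macrophage-like cells with a median of 0.52 and 0 called, led by Mif (155 CPM in DOCA-salt mice and 94.8 CPM in sham mice, log2 change 0.71, adjusted p = 0.36), Pgk1 (109 CPM in DOCA-salt mice and 77.3 CPM in sham mice, log2 change 0.64, adjusted p = 0.628) and Bnip3 (35.4 CPM in DOCA-salt mice and 26.2 CPM in sham mice, log2 change 0.52, adjusted p = 0.721). In NK-like cells 1 of 6 was above 0, with 0 called.

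Early response genes, which tissue digestion is known to induce, were read in the classes that hold Pdgfb. In macrophage-like cells 15 of 22 lay below 0 with a median of -0.33 and 0 called, and in NK-like cells 17 of 20 with a median of -0.23. There Jund (809.7 CPM in DOCA-salt mice and 1109.9 CPM in sham mice, log2 change -0.51, adjusted p = 0.00509) and Junb fell, 2 of 20 beside 0.903% of all genes. In nonclassical monocyte-like cells 17 of 19 were below 0 and Dusp1, Klf2 and Jund fell, 3 of 19 beside 1.64% of all genes. Pdgfb had 17 CPM in DOCA-salt mice and 27.1 CPM in sham mice in that class, from 8 and 10 UMIs. The part of early response in the Pdgfb values was not tested.

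Markers of other cell types were summed in the classes that hold Pdgfb. In macrophage-like cells the summed endothelial list was 21.8 to 45.9 CPM in DOCA-salt mice and 21.7 to 78.5 CPM in sham mice, and Fabp4 gave 104 of its 158 UMIs. The platelet list, whose cells are known for PDGF, was 8.8 to 32 CPM in DOCA-salt mice and 0 to 11.9 CPM in sham mice there, with Gp9 at 0 and Pf4, which macrophages also express, left out. NK-like cells had 81.7 to 111 CPM in DOCA-salt mice and 76 to 105 CPM in sham mice, led by Gp1bb, with Gp9, Clec1b and Treml1 at 0. The mural list in NK-like cells was 152 to 217 CPM in DOCA-salt mice and 123 to 149 CPM in sham mice, of which Kcnj8, a leading gene of an NK-like cluster, gave 1089 of 1100 UMIs, with Pdgfrb and Cspg4 at 0. Their part in the Pdgfb values was not tested.

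The genes most like each factor were taken as those with the highest Pearson r of log2(mean CPM + 10) over 24 points, the 12 classes in each group, among 9525 genes. Points of one class share cells' lineage and points of one group share a library, so r is a description. For Igf1 they were Ltc4s (r = 0.95), Folr2 (0.95) and Stab1 (0.95). For Grn they were Hexa (r = 0.91), Ifi207 (0.89) and P2ry6 (0.89), and Hexa is itself on the progranulin handling list. Pdgfa was nearest to Fcrls (r = 0.93), Kcnk13 (0.93) and Axl (0.91), and Pdgfb to Abcg2 (r = 0.84), Mag (0.82) and Tmem37 (0.78). Osm was nearest to Hdc (r = 0.93), Slc2a3 (0.93) and Mxd1 (0.92) and Csf1 to Hdc (r = 0.90), Slc2a3 (0.90) and Cxcr2 (0.88), both beginning with Hdc, the histamine-making enzyme. Areg was nearest to Map6 (r = 0.99), Fbxl21 (0.99) and Ccdc184 (0.99), of which Ccdc184 is among the 10 leading genes of the ILC2-like cluster. For Vegfb the values were lower, with Zfp157 (r = 0.79), Zfp553 (0.78) and Serf1 (0.78).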

How the data were processed

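Raw UMI counts per gene and cell were deposited by the authors as matrices made with Cell Ranger, version 3.1.0 per the file headers. Seurat 4 and the mm10 build are named in the submitters' processing notes. Gene and barcode identifiers were deposited by the authors as text, of another kind than counts. Gene positions are from the GRCm38 annotation (GENCODE M21) and promoters from RefSeq. The 10 factors and all gene lists were chosen with earlier results of these data known.

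Barcodes were kept at 200 or more genes and a mitochondrial share of 10% or less. Scrublet in scanpy 1.11.5 removed 241 DOCA-salt (3.28%) and 79 sham (1.86%) doublets, and 321 and 136 cells whose highest hashtag was under 2 times the second were left out. Cells of both libraries were clustered together without batch correction (2000 variable genes, 30 components, 15 neighbours, Leiden resolution 1.0 with leidenalg 0.10.2), and clusters other than B-like ones were clustered again at 0.5, giving 45 clusters. A class name needed 3 markers held by 15% of cells at a log2 fold of 1; Areg was left out of the ILC2 markers. The 9 unnamed clusters hold 620 DOCA-salt and 511 sham cells. The second clustering and the rules that leave a cluster unnamed were chosen after clusters were seen and before the factors' values, and the minimum of 10 UMIs for a source class after those values were seen.

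UMIs were summed per class and mouse. After filterByExpr and TMM scaling, the quasi-likelihood test of edgeR 4.0.16 was run in R 4.3.3, with p-values adjusted over all genes of a class by the Benjamini-Hochberg method and a threshold of 0.05. A class was tested where all 8 mice had a cell and each group 15 cells (7 of 12 classes). The mouse is the replicate. UMIs per mouse were 196249 to 1817208 for DOCA-salt and 114691 to 334953 for sham in macrophage-like cells. The test was checked on simulated counts. Genes named beside the factors were those of each list with the largest absolute log2 change in the class where most of the list was measured, up to 3. One gene that this rule names is not reported here. Alternatives were DESeq2 1.42.0, no TMM, no low-count filter, other cell filters, hashtag margin and clusterings, and each mouse left out.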

Additional observations from a re-analysis of the deposited data

Results flagged for a closer look

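Of 46 groups of 4 mice in which a factor's values were examined for a mouse far from the others, 3 held one. For normally distributed values the rule used flags about 1 in 20 groups. These counts are sparse, and the rate for them was not measured. A group with 0 in 3 mice is flagged whenever the remaining mouse is above 0. In NK-like cells Osm was 104 CPM in sham mouse 3, from 22 UMIs in 65 cells of which 14 were in 1 cell, while the other sham mice had 22.0 to 29.4 CPM. In neutrophil-like cells Osm was 778 CPM in DOCA-salt mouse 3, from 59 UMIs in 35 cells, while the other DOCA-salt mice had 394 to 431 CPM. In gamma-delta T-like cells Grn was 898 CPM in sham mouse 3, from 2 UMIs in 1 cell, and 0 in the other sham mice. The causes were not tested.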

How the results depend on the processing

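No paired analysis was possible because a hashtag number only tells mice of 1 pool apart, and equal numbers do not join a DOCA-salt mouse with a sham mouse. No factor passed the threshold under any setting run except Areg in T-like cells without the low-count filter. Of 166 log2 changes recomputed under settings other than leaving out a mouse, 161 kept their direction. The 5 that turned round were past no threshold: Grn in the largest B-like cluster alone (0.14), Grn in classical monocyte-like cells and Pdgfa in macrophage-like cells without the low-count filter (0.30 and 0.0086), Grn in T-like cells with 1 level of clustering, added after seeing the data (-0.10), and Osm without B-like cells (-0.15). With a mouse left out, log2 changes ranged over -0.15 to 0.23 for Igf1 and -0.21 to 0.14 for Pdgfa in macrophage-like cells, -0.22 to 0.074 for Grn in classical monocyte-like cells, -0.17 to 0.44 for Grn in T-like cells and -0.14 to 0.27 for Osm over all leukocytes.

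The number of genes passing moved more. Without B-like cells it was 95 in place of 565. With the largest cluster only it was 16 in B-like, 9 in macrophage-like, 5 in NK-like, 2 in nonclassical monocyte-like and 75 in T-like cells. With no low-count filter it was 306, 126, 131, 66 and 199 in the same classes, 18 in classical monocyte-like and 11 in ILC2-like cells. Classical monocyte-like cells gave 2 with doublets kept and 2 under the stricter cell filter, ILC2-like cells 1 by DESeq2, and macrophage-like cells 42 with the factors left out of clustering and 6 under the stricter filter. Outside B-like cells the 95 were 203 by DESeq2, 165 with no low-count filter and 34 to 136 with a mouse left out. Leaving out a mouse gave 304 to 563 over all leukocytes, 70 to 135 in B-like, 5 to 21 in macrophage-like, 30 to 71 in NK-like, 18 to 31 in T-like, 13 to 29 in nonclassical and 1 to 2 in classical monocyte-like and 0 to 1 in ILC2-like cells. Thinning to 1500 UMIs, over the cells at least that deep, gave 19.7% of DOCA-salt and 16.3% of sham macrophage-like cells for Igf1, 4.46 and 3.35% for Pdgfa, 79.7 and 78.5% for Grn, and 7.37 and 8.83% of NK-like cells for Pdgfb. The cause of these moves was not tested, except that fewer cells or more genes enter by construction.

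With 1 level of clustering no ILC2-like or basophil-like class was named, and the highest class was T-like for Areg (15.6 CPM) and neutrophil-like for Osm and Csf1 (1174 and 622 CPM). Depth limits Vegfa and Hbegf, and the number of cells limits basophil-like and sham neutrophil-like values.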
